A study of Danio rerio with 4 samples.

Results

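Somite segmentation and presomitic mesoderm genes were followed in zebrafish embryos injected with a morpholino against Bad (MO-Bad) and in wild-type embryos, at 12 and 24 hours post fertilization (hpf). The set was a list of 37 genes of the tailbud, the segmentation clock and the forming somites, chosen with earlier results of these data known. A gene was measured where a probe's RefSeq accession carried its symbol, which held for 31 of the 37. Of these, 30 were bright enough to be tested, among 10206 tested genes in all. The boundary ligand gene efnb2a had a probe that was not well above background, and tbxtb, msgn1, her15.1, mespab, mespbb and tcf15 were not analysed here.

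The 4 groups were MO-Bad embryos at 12 hpf, wild-type embryos at 12 hpf, MO-Bad embryos at 24 hpf and wild-type embryos at 24 hpf. Morphants had received between 2 and 3 nl of morpholino at the 1-cell stage, and the study counted 200 embryos in each group. Total RNA of whole embryos was hybridized to 4 Agilent arrays, 2 per age, each with a morphant sample in Cy5 against a wild-type sample in Cy3. No control morpholino and no exchange of the dyes are named in the labels, so knockdown, injection and dye cannot be told apart within an age. All samples are whole embryos, so fewer cells of a type and less RNA per cell cannot be told apart either.

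Somites form one after another from the presomitic mesoderm, a tissue fed by progenitors in the tailbud. Wnt and Fgf signals keep the progenitors undifferentiated, while Hes/Her repressors and Notch signalling drive an oscillation, the segmentation clock. At the front of the tissue Tbx6, the Mesp factors and the Ripply repressors turn that oscillation into segment boundaries. Wild-type zebrafish embryos are forming somites at the earlier of the sampled ages and have nearly finished at the later one.

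The median spot signal was between 88.5 and 136 in the morphant channel and between 52 and 76 in the wild-type channel, over median local backgrounds of 48.5 to 49 and 29 to 32. Log ratios correlated at r = 0.73 between the 12 hpf arrays and at 0.70 between the 24 hpf arrays, across 28320 probes, which are not independent replicates. The only probe for a Bad gene, for badb, gave log2 ratios of −0.30 and −0.20 at 12 hpf, and of −0.42 and −0.20 at 24 hpf. It was lower in morphants on all 4 arrays. Whether badb is the Bad gene that the morpholino was made against is not stated. The genes tbx16, tbx16l and fgf17, listed as markers of tailbud and presomitic mesoderm, were well above background in both channels on every array. Among the other tested members this also held, except for pcdh8, which missed it in part, and tbx18, which no 12 hpf sample showed well above background.

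Most of these genes had lower mRNA levels in morphants than in wild type at 24 hpf, led by the T-box genes tbx16 and tbx16l and the signal gene fgf17. Of the 30 tested members 19 were called lower and 1, the clock gene her12, was called higher. Over all tested genes 14.1% were called lower and 12.1% higher at this age. Since the list was chosen with earlier results of these data known, these shares describe the list and do not test it. The members' median log2 ratio of morphant over wild type was −0.28, against −0.00 for all genes. Here and below, a gene was called where limma's Benjamini-Hochberg adjusted p over all probes was under 0.05, and a ratio with its SD is the mean of n = 2 arrays.

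At 12 hpf the picture was mixed, with 6 members called higher and 2 called lower of 30, where 12.4% and 10.9% of all tested genes were called. In either direction 8 of 30 members were called, near the share of 23.3% over all tested genes. The higher members were tbx16, cdx4, eve1, wnt8a, her7 and ripply2, and the lower ones lfng and foxc1b. The members' median ratio was 0.03. With median centring of the ratios and a prior variance following intensity, a setting chosen after seeing the data, 15 were called higher and 2 lower at this age. The share of all tested genes called under that setting is not given here. The morphant effect at 24 hpf minus that at 12 hpf was called lower for 18 members and higher for 1, lfng, where 6.84% and 4% of all genes were called. The median of this difference was −0.51. A dye bias of a probe would cancel in this difference only if it was equal at both ages, which was not tested.

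The number of calls depended on the processing more than the direction did. At 24 hpf limma called 0 members with the scanner software's processed signals, where 22 had an unadjusted p under 0.05, although the median ratio there was −0.39 and 27 of 30 members lay below 0. When the prior variance was allowed to follow intensity, also chosen after seeing the data, the same processed signals gave 19 members lower and 1 higher at 24 hpf. For the difference between ages the corresponding counts were 0 calls (21 at an unadjusted p under 0.05), and then 16 lower and 1 higher. The shares of all tested genes called under these settings are not given here, so these counts show only how calls moved with the processing. In the main fit 21 of 30 members were lower and 2 higher at 24 hpf at an unadjusted p under 0.05. At that threshold of the main fit 2205 of all 10206 tested genes were lower and 1988 higher.

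**Figure D1:**
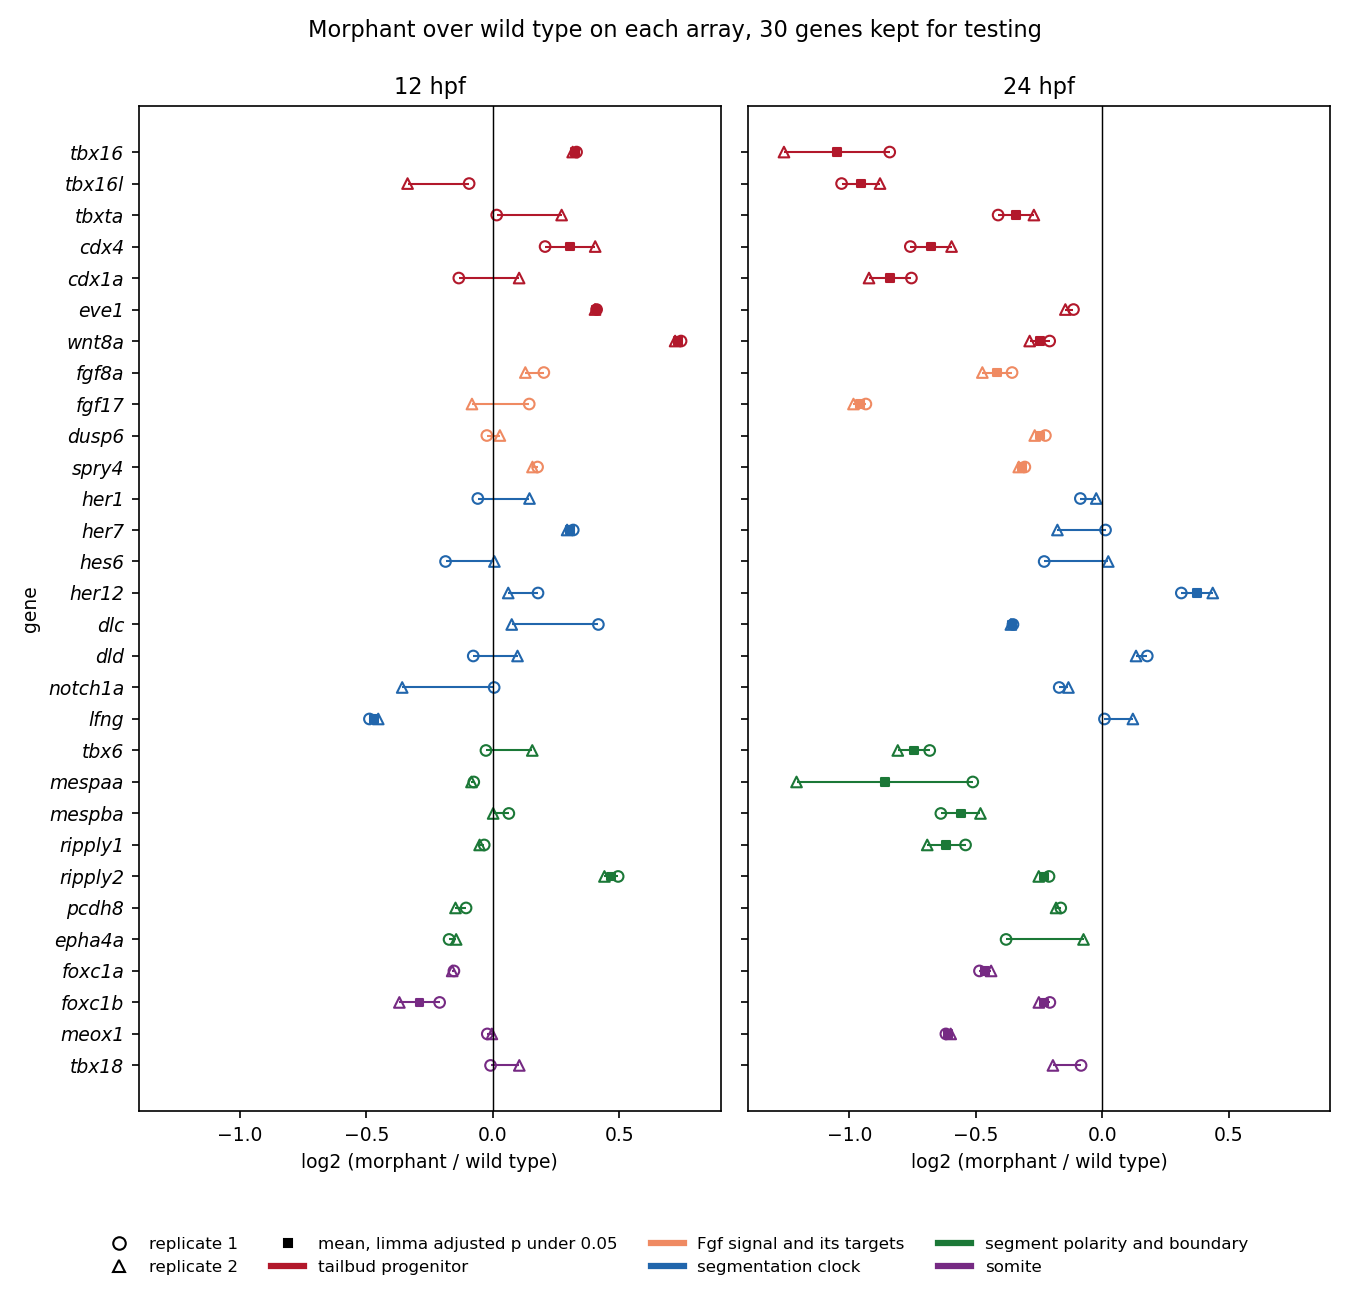
Log2 ratio of morphant over wild type on each array for the 30 tested genes, at 12 hpf (left) and 24 hpf (right), coloured by role. Open symbols are single arrays, lines join the 2 arrays of an age, and filled squares mark means with a limma adjusted p under 0.05: at 24 hpf 20 genes carry a square, 19 of them left of 0.

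Among tailbud progenitor genes, 6 of the 7 tested were lower in morphants at 24 hpf, with a median log2 ratio of −0.68. Over all tested genes 14.1% were called lower at this age, the share to set beside the 24 hpf counts of each role below. The T-box factor gene tbx16, which directs progenitors out of the tailbud into paraxial mesoderm, had normalized log2 intensities of 10.10 and 10.14 in morphants at 24 hpf, against 10.94 and 11.40 in wild type. Morphants lay below wild type on both arrays, with no overlap, and the log2 ratio was −1.05 ± 0.30, a 2.07-fold lower level (limma adjusted p = 2.08e-04). Here and below, the share of all tested genes without such overlap is not given. At 12 hpf the same probe read 13.45 and 13.48 in morphants and 13.12 and 13.17 in wild type, a log2 ratio of 0.32 ± 0.01 (adjusted p = 0.0333). The sign of the effect thus differed with age, and the difference was −1.37 ± 0.13 (SE; adjusted p = 9.51e-04). The 12 hpf call of tbx16 was lost without either 12 hpf array (adjusted p = 0.163 without replicate 1 and 0.114 without replicate 2). A second, dimmer tbx16 probe gave 0.15 ± 0.10 at 12 hpf (adjusted p = 0.135) and −0.52 ± 0.01 at 24 hpf (adjusted p = 9.85e-04).

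Its paralogue tbx16l, a T-box gene of the same tissue, had log2 intensities of 11.21 and 11.33 in morphants at 24 hpf, against 12.24 and 12.21 in wild type. The groups did not overlap, and the ratio was −0.95 ± 0.11 (1.94-fold lower, adjusted p = 1.52e-04). At 12 hpf tbx16l was at −0.09 and −0.34 on the 2 arrays, below 0 on both but not past the test (mean −0.22 ± 0.17, adjusted p = 0.0760). Only by their brightest probes did the paralogues point in opposite directions at 12 hpf, a difference between them that was not tested. The second probe of tbx16l averaged 0.13 ± 0.28 there (adjusted p = 0.358), above 0 like the tbx16 probes. That second probe was lower at 24 hpf as well, at −0.69 ± 0.14 (adjusted p = 0.00133).

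The caudal homeobox genes cdx1a and cdx4 specify posterior identity in the extending axis. The brighter cdx1a probe had log2 ratios of −0.75 and −0.92 at 24 hpf (mean −0.84 ± 0.12, 1.79-fold lower, adjusted p = 2.66e-04), and of −0.13 and 0.10 at 12 hpf (adjusted p = 0.910). Its dimmer probe gave 0.02 ± 0.04 at 24 hpf (adjusted p = 0.923), so the 2 probes of cdx1a disagreed there. With the mean of both probes the ratio was −0.41 (adjusted p = 0.0158). For cdx4 the ratios were −0.76 and −0.60 at 24 hpf (mean −0.68 ± 0.12, 1.60-fold lower, adjusted p = 5.01e-04). At 12 hpf they were 0.21 and 0.40, above 0 on both arrays, with a mean of 0.31 ± 0.14 (adjusted p = 0.0180). Without 12 hpf replicate 2 the 12 hpf call of cdx4 was lost (0.21, adjusted p = 0.194).

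The posterior Wnt ligand gene wnt8a gave the largest ratio of any tested member at 12 hpf. Its log2 intensities were 10.80 and 10.82 in morphants and 10.06 and 10.10 in wild type, without overlap, and the ratio was 0.73 ± 0.02 (adjusted p = 1.35e-04). A second wnt8a probe agreed in direction at 0.68 ± 0.05 (adjusted p = 1.65e-04). At 24 hpf wnt8a was lower in morphants, with ratios of −0.21 and −0.29 (mean −0.25 ± 0.06, adjusted p = 0.0228). This call was lost without replicate 1 (adjusted p = 0.0932) or replicate 2 (0.221) of that age. Across processing settings the 24 hpf ratio of wnt8a reached −0.50. The change in its effect between ages was −0.98 ± 0.09 (SE; adjusted p = 7.44e-04). The homeobox gene eve1, expressed in ventral and posterior mesoderm, was higher at 12 hpf by 0.41 ± 0.00 (adjusted p = 0.00210) and stood at −0.13 ± 0.02 at 24 hpf (adjusted p = 0.168). The Brachyury gene tbxta, needed for tail and notochord, stood at 0.14 ± 0.18 at 12 hpf (adjusted p = 0.221) and was lower at 24 hpf, at −0.34 ± 0.10 (adjusted p = 0.0146). Without replicate 1 of that age tbxta no longer passed (adjusted p = 0.160).

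**Figure D2:**
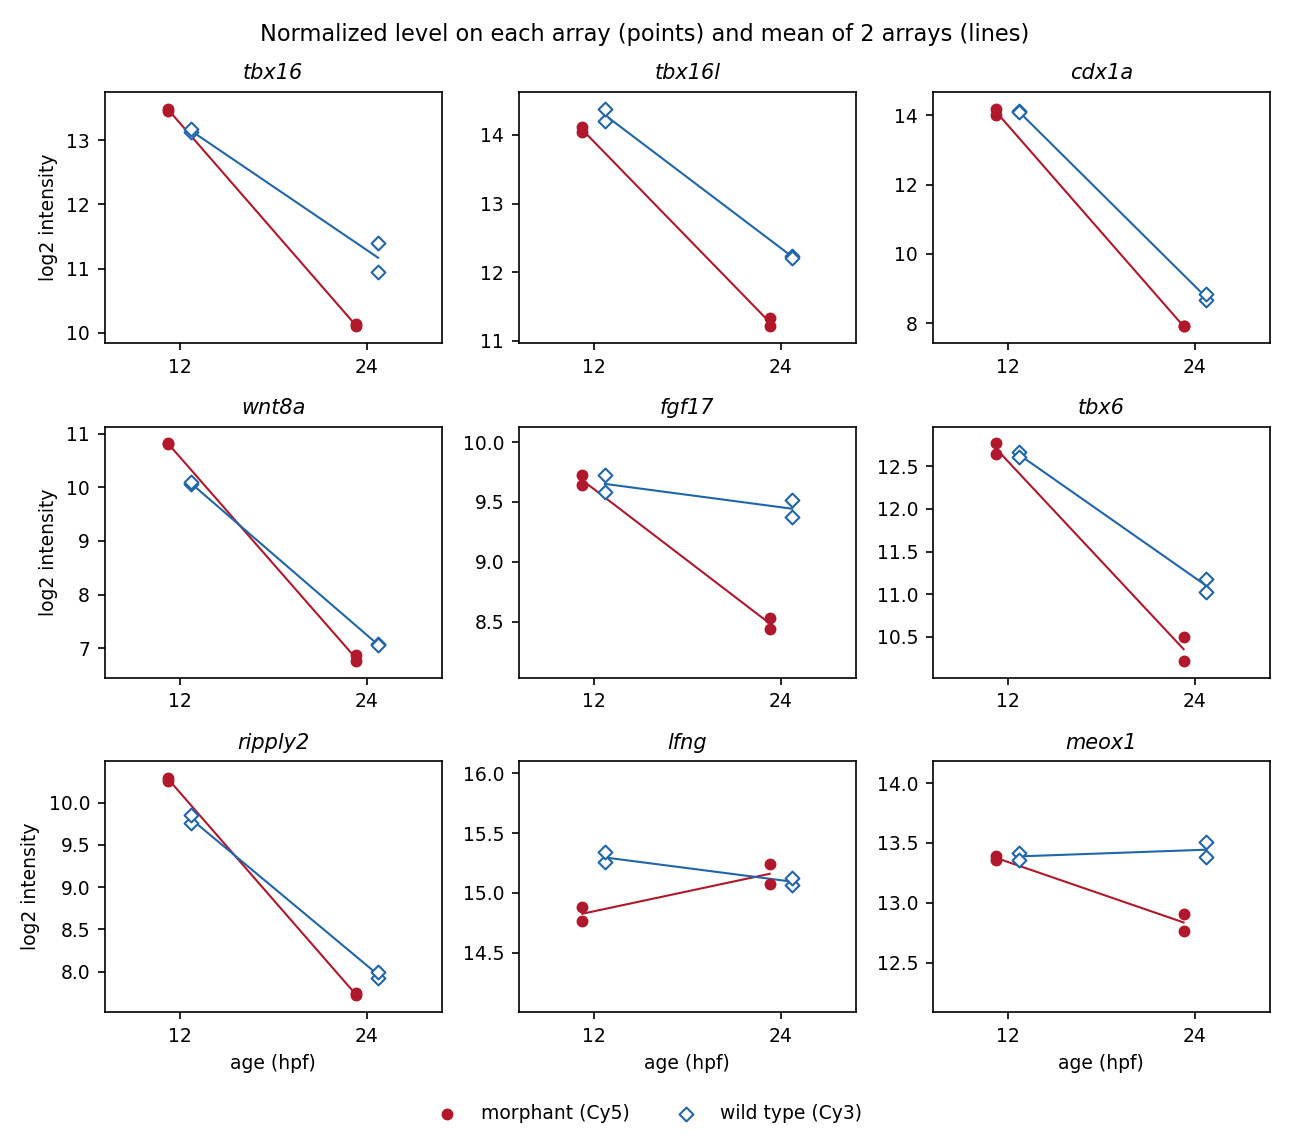
Normalized log2 intensity of 9 members on each array at 12 and 24 hpf, morphant (Cy5, filled circles) and wild type (Cy3, open diamonds), with lines through the means of 2 arrays. At 24 hpf both morphant points lie below both wild-type points in every panel except that of lfng.

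The Fgf ligands and their feedback targets were all 4 lower in morphants at 24 hpf, with a median log2 ratio of −0.37. Fgf signalling holds the posterior presomitic mesoderm immature, and dusp6 and spry4 encode inhibitors that Fgf itself induces. RNA of whole embryos does not show in which tissue these genes were lower. The ligand gene fgf17 had log2 intensities of 8.44 and 8.53 in morphants at 24 hpf, against 9.37 and 9.52 in wild type. These did not overlap, and the ratio was −0.96 ± 0.03 (1.94-fold lower, adjusted p = 1.04e-04), with −0.47 ± 0.02 for its dimmer probe (adjusted p = 0.00121). The ligand gene fgf8a was at −0.36 and −0.47 (mean −0.41 ± 0.08, adjusted p = 0.00280), and its 2 other probes averaged −0.48 and −0.49. The phosphatase gene dusp6 was at −0.22 and −0.27 (mean −0.25 ± 0.03, adjusted p = 0.0227). The Sprouty gene spry4 was at −0.31 and −0.33 (mean −0.32 ± 0.02, adjusted p = 0.00719). Among these 4 genes the falls of the feedback genes were the smaller ones, a contrast that was not tested. Other Fgf pathway genes did not all follow it. The antagonist gene il17rd was at −0.77, and spry2, dusp4 and spry1 were at −0.25, −0.22 and −0.13. The ligand genes fgf10a, fgf24 and fgf3 were at −0.24, −0.12 and −0.00. The calls of both dusp6 and spry4 were lost without either 24 hpf array. Under median centring of the log ratios dusp6 turned to 0.017 (adjusted p = 0.912).

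At 12 hpf 0 of the 4 Fgf genes passed limma's adjusted threshold, and 2 had an unadjusted p under 0.05. On the 12 hpf arrays fgf17 was at 0.14 and −0.08, fgf8a at 0.20 and 0.13, dusp6 at −0.02 and 0.03, and spry4 at 0.18 and 0.16. By their brightest probes fgf8a and spry4 thus lay above 0 on each array, without passing the test. The other fgf8a probes did not share this, at 0.13 and −0.01 for the next brightest and −0.15 and −0.19 for the dimmest. The difference between ages was called for fgf17 at −0.99 ± 0.10, fgf8a at −0.58 ± 0.09 and spry4 at −0.48 ± 0.09 (SE; adjusted p = 0.00117, 0.00799 and 0.0125). For dusp6 it was −0.25 ± 0.09 (adjusted p = 0.116). The dimmer fgf17 probe gave a smaller difference, at −0.37 (adjusted p = 0.0356). The next brightest probes gave −0.54 for fgf8a and −0.55 for spry4 (adjusted p = 0.0109 and 0.0132). The dimmest probes did not pass, at −0.32 for fgf8a and −0.22 for spry4 (adjusted p = 0.0552 and 0.154). One of the spry4 probes that was not the brightest was higher at 12 hpf, at 0.34 ± 0.04 (adjusted p = 0.00944), while the dimmest stood at −0.05.

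Of the 8 tested genes listed under the segmentation clock 1 was called lower and 1 higher at each age, lfng and her7 at 12 hpf and dlc and her12 at 24 hpf. The list counts lfng here, although in zebrafish it is expressed in somites rather than cycling. Of all tested genes 10.9% were called lower and 12.4% higher at 12 hpf, and 14.1% and 12.1% at 24 hpf. The clock counts thus lay near the share over all genes. Their median ratio was 0.03 at 12 hpf, over members between −0.47 and 0.31, and −0.07 at 24 hpf, over members between −0.36 and 0.38. The core oscillator genes her1 and her7 encode transcriptional repressors that shut off their own genes. For her1 the ratios were −0.06 and 0.14 at 12 hpf and −0.09 and −0.02 at 24 hpf, on both sides of 0 or close to it (adjusted p = 0.711 and 0.625). For her7 they were 0.32 and 0.29 at 12 hpf (mean 0.31 ± 0.02, adjusted p = 0.0129) and 0.01 and −0.18 at 24 hpf (adjusted p = 0.438). Morphants were above wild type for her7 on both 12 hpf arrays, but the call was lost without either of them. The gene of the partner repressor hes6 was at −0.09 ± 0.14 at 12 hpf (adjusted p = 0.461) and −0.10 ± 0.18 at 24 hpf (adjusted p = 0.402). Both her1 and hes6 were dim at 24 hpf, with wild-type signals of 68.5 and 72.5 for her1 and of 64 on each array for hes6. The median wild-type backgrounds there were 32 and 30. Under other processing settings their 24 hpf ratios reached −0.34 for her1 and −0.42 for hes6, without passing the test.

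Another cyclic repressor gene, her12, was the member that rose at 24 hpf. Its log2 intensities were 9.93 and 10.07 in morphants and 9.61 and 9.63 in wild type, without overlap, and the ratio was 0.38 ± 0.09 (1.30-fold higher, adjusted p = 0.00505). Its call was lost without 24 hpf replicate 2. At 12 hpf her12 was at 0.18 and 0.06 (mean 0.12 ± 0.08, adjusted p = 0.239), and the difference between ages was not past the test (0.26 ± 0.10, SE; adjusted p = 0.130).

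Of the members that encode Notch ligands and receptors, which synchronize neighbouring oscillators, only dlc was called at 24 hpf. Among other genes of the pathway the receptor gene notch2 was also called lower, at −0.25 (adjusted p = 0.0293). The genes dla, dlb, notch1b and notch3 were not called at that age. Differences between these genes were not tested. The ligand gene dlc had ratios of −0.35 and −0.36 at 24 hpf (mean −0.36 ± 0.01, adjusted p = 0.0157), and 0.42 and 0.07 at 12 hpf (adjusted p = 0.0625). Leaving out either later array ended the dlc call, and the dimmer dlc probes were at −0.16 and −0.14 there and did not pass. The ligand gene dld was at 0.18 and 0.13 at 24 hpf (adjusted p = 0.134), and the receptor gene notch1a at −0.17 and −0.13 (adjusted p = 0.240). At 12 hpf dld was at −0.08 and 0.10 and notch1a at 0.01 and −0.36, neither past the test (adjusted p = 0.934 and 0.172), although the other dld probe was lower there, at −0.24 ± 0.05 (adjusted p = 0.0255). The gene of the Notch-modifying glycosyltransferase lfng, which in zebrafish is expressed in somites rather than cycling, was lower in morphants at 12 hpf. Its log2 intensities were 14.77 and 14.88 in morphants, against 15.25 and 15.34 in wild type, a ratio of −0.47 ± 0.02 (adjusted p = 0.00124). Under median centring of the log ratios this shrank to −0.07 (adjusted p = 0.637) and the 24 hpf ratio was 0.49 (adjusted p = 0.107, and 8.54e-09 with the variance trend). After loess, by 24 hpf the groups overlapped, with 15.07 and 15.24 in morphants and 15.06 and 15.12 in wild type, so that the effect had moved up by 0.54 ± 0.09 (SE; adjusted p = 0.00994).

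**Figure D3:**
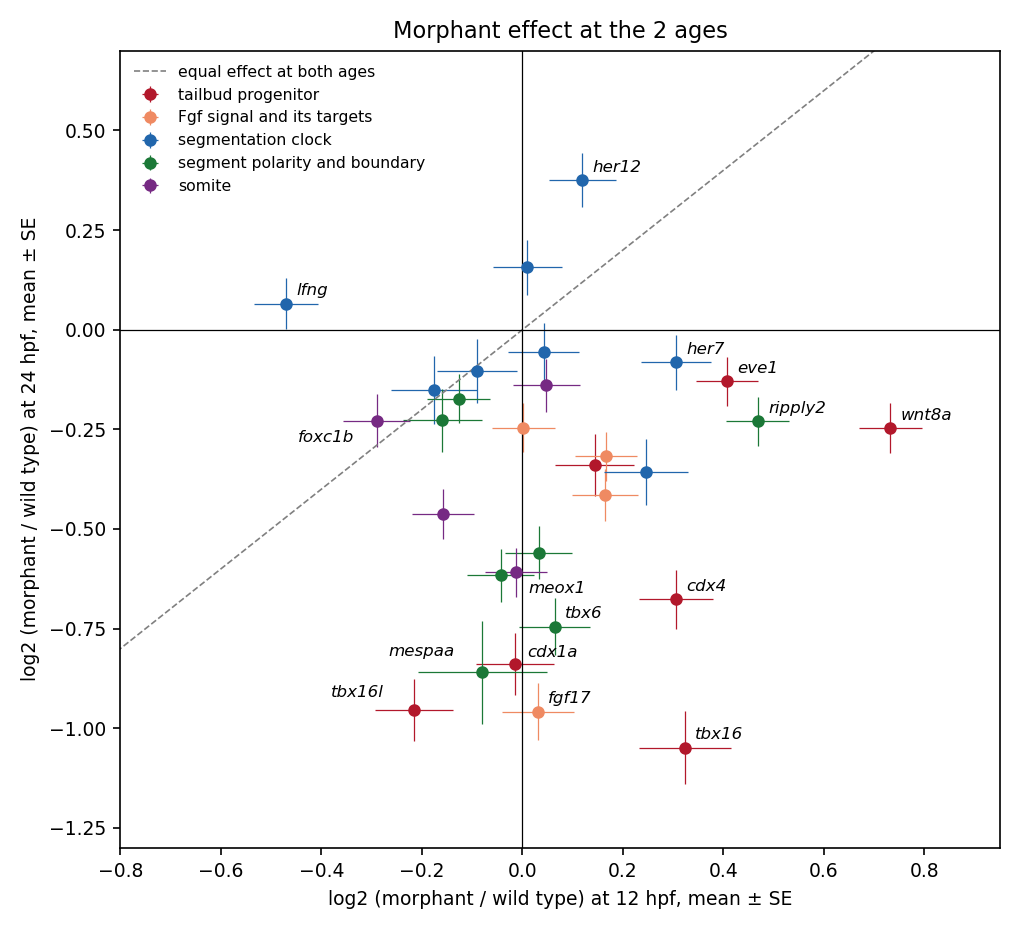
Mean log2 ratio of morphant over wild type at 12 hpf (x axis) against that at 24 hpf (y axis) for the 30 tested genes, with SE bars from limma and colours by role. The dashed line marks an equal effect at both ages; tbx16, cdx4, wnt8a and ripply2 lie right of 0 on the x axis and below 0 on the y axis, and lfng lies left of 0 at 12 hpf and near 0 at 24 hpf.

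Genes of segment polarity and boundary formation were lower at 24 hpf in 5 of 7 tested cases, with a median log2 ratio of −0.56. The T-box gene tbx6, whose loss in the fused somites mutant abolishes segment boundaries, had log2 intensities of 10.49 and 10.22 in morphants at 24 hpf, against 11.18 and 11.03 in wild type. These did not overlap, and the ratio was −0.74 ± 0.09 (1.68-fold lower, adjusted p = 3.00e-04). At 12 hpf tbx6 was at −0.03 and 0.16 (adjusted p = 0.563). The prospective segments are marked by the Mesp factors, whose gene mespaa was at −0.51 and −1.21 at 24 hpf (mean −0.86 ± 0.49, adjusted p = 0.00216). The 2 arrays differed widely for mespaa though both lay below 0, and at 12 hpf it was at −0.08 on each (adjusted p = 0.701). Its relative mespba was at −0.64 and −0.48 (mean −0.56 ± 0.11, adjusted p = 7.33e-04), and at 0.06 and 0.00 at 12 hpf (adjusted p = 0.773).

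The Ripply proteins switch off Tbx6 at the new boundary. Their gene ripply1 was at −0.54 and −0.69 at 24 hpf (mean −0.62 ± 0.11, 1.53-fold lower, adjusted p = 4.66e-04), and at −0.03 and −0.05 at 12 hpf (adjusted p = 0.685). In contrast ripply2 was higher in morphants at 12 hpf, with log2 intensities of 10.26 and 10.29, against 9.77 and 9.85 in wild type. The ratio was 0.47 ± 0.04 (adjusted p = 0.00108). At 24 hpf ripply2 was lower, at −0.21 and −0.25 (mean −0.23 ± 0.03, adjusted p = 0.0290), a call lost without either 24 hpf array. The change of its effect between ages was −0.70 ± 0.09 (SE; adjusted p = 0.00289). The paraxial protocadherin gene pcdh8 stood at −0.17 ± 0.01 at 24 hpf (adjusted p = 0.0762) and the Eph receptor gene epha4a at −0.23 ± 0.22 (adjusted p = 0.0704). A dimmer epha4a probe passed, at −0.26 ± 0.05 (adjusted p = 0.0206).

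Of the 4 tested somite genes 3 were lower at 24 hpf, with a median log2 ratio of −0.35. The homeobox gene meox1, active in newly formed somites, had log2 intensities of 12.76 and 12.91 in morphants at 24 hpf, against 13.38 and 13.51 in wild type. These did not overlap, and the ratio was −0.61 ± 0.01 (1.52-fold lower, adjusted p = 3.69e-04), while at 12 hpf it was −0.02 and −0.00 (adjusted p = 0.904). The forkhead genes foxc1a and foxc1b act in paraxial mesoderm. For foxc1a the ratios were −0.48 and −0.44 at 24 hpf (mean −0.46 ± 0.03, adjusted p = 0.00123) and −0.15 and −0.16 at 12 hpf (adjusted p = 0.101). The foxc1b ratios were −0.21 and −0.25 at 24 hpf (mean −0.23 ± 0.03, adjusted p = 0.0391), and its 12 hpf ratios were −0.21 and −0.37 (mean −0.29 ± 0.11, adjusted p = 0.0145). No other member was called lower at both ages, and the effect on foxc1b at 24 minus 12 hpf was 0.06 ± 0.09 (SE; adjusted p = 0.735). At 24 hpf foxc1b did not pass without either array, nor at 12 hpf without replicate 2 of that age. The T-box gene tbx18, which marks the anterior part of each somite, was at −0.08 and −0.19 at 24 hpf (adjusted p = 0.171). At 12 hpf neither group was well above background, so the tbx18 ratio of 0.05 ± 0.08 there (adjusted p = 0.655) says little.

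Between 12 and 24 hpf most of these mRNAs declined in both morphants and wild type. The level at 24 hpf was called lower than at 12 hpf for 26 of 30 members in morphants and for 23 in wild type, where 42.8% and 40.8% of all tested genes were lower. It was called higher for 3 members in morphants and 3 in wild type, where 34.4% and 34.3% of all genes were higher. The median log2 change was −1.47 in morphants and −1.13 in wild type, against −0.10 and −0.08 over all genes. In either direction 77.2% of all tested genes were called in morphants and 75.1% in wild type. These comparisons share their arrays with the morphant ratios above, and the test of each further decline is the difference between ages already given.

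The probes of cdx1a disagreed on the size of its decline. The brighter had a log2 change of −6.18 ± 0.09 in morphants and −5.36 ± 0.09 in wild type (SE; adjusted p = 1.05e-08 and 1.44e-07). In linear terms these were 72.7-fold lower levels at 24 hpf in morphants and 41.1-fold lower ones in wild type. The dimmer cdx1a probe changed by only −2.07 in morphants and −2.14 in wild type, with no further fall in morphants (difference 0.07, adjusted p = 0.813). The log2 change of wnt8a was −3.99 ± 0.08 in morphants and −3.01 ± 0.08 in wild type, and that of cdx4 was −3.68 ± 0.07 in morphants and −2.70 ± 0.11 in wild type. For tbx16 it was −3.35 ± 0.07 in morphants and −1.98 ± 0.15 in wild type, a level 10.2-fold lower against 3.94-fold lower. The clock gene her7 changed by −3.18 ± 0.08 in morphants and −2.80 ± 0.08 in wild type, whereas her1 changed by −1.93 ± 0.10 in morphants and −1.84 ± 0.14 in wild type. For hes6 the values were −1.37 ± 0.09 in morphants and −1.36 ± 0.09 in wild type, and for neither her1 nor hes6 did the difference between morphant and wild type exceed its SE. Both genes were dim at 24 hpf, and the size of their declines depended on the processing. Across settings the her1 decline reached −3.57 in morphants and −3.23 in wild type, and that of hes6 −2.80 and −2.72. The same held for wnt8a, with wild-type signals of 100 and 93 at 24 hpf. Its decline reached −5.45 in morphants and −4.18 in wild type.

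Another group of members had a wild-type level that, by the brightest probe, was not called different between the ages. In wild type fgf17 changed by −0.21 ± 0.09 (SE; adjusted p = 0.0909), meox1 by 0.06 ± 0.08 (adjusted p = 0.576) and spry4 by 0.07 ± 0.09 (adjusted p = 0.494). In morphants these 3 changed by −1.20 ± 0.08, −0.54 ± 0.08 and −0.41 ± 0.08 (adjusted p = 9.49e-06, 6.83e-04 and 0.00226). Dimmer probes did not all show a steady wild-type level. The dimmer fgf17 probe changed by −0.53 in wild type (adjusted p = 9.51e-04) and −0.90 in morphants. The dimmest spry4 probe changed by −0.48 in wild type (adjusted p = 0.00421) and −0.71 in morphants. The remaining spry4 probe changed by −0.03 in wild type (adjusted p = 0.825). The level of lfng rose in morphants, at 0.33 ± 0.09 (adjusted p = 0.0118), and was at −0.20 ± 0.08 in wild type (adjusted p = 0.0614). The morphant call of lfng was lost without 24 hpf replicate 2. Among genes that increased with age, dld rose by 1.16 ± 0.08 in morphants and 1.01 ± 0.11 in wild type. No 12 hpf sample of tbx18 was well above background, and its level at 24 hpf was at least 1.37-fold higher in morphants and at least 1.48-fold higher in wild type. These bounds set the 24 hpf mean against, on each 12 hpf array, the higher of the probe's own signal and the lowest signal of any probe well above background.

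**Figure D4:**
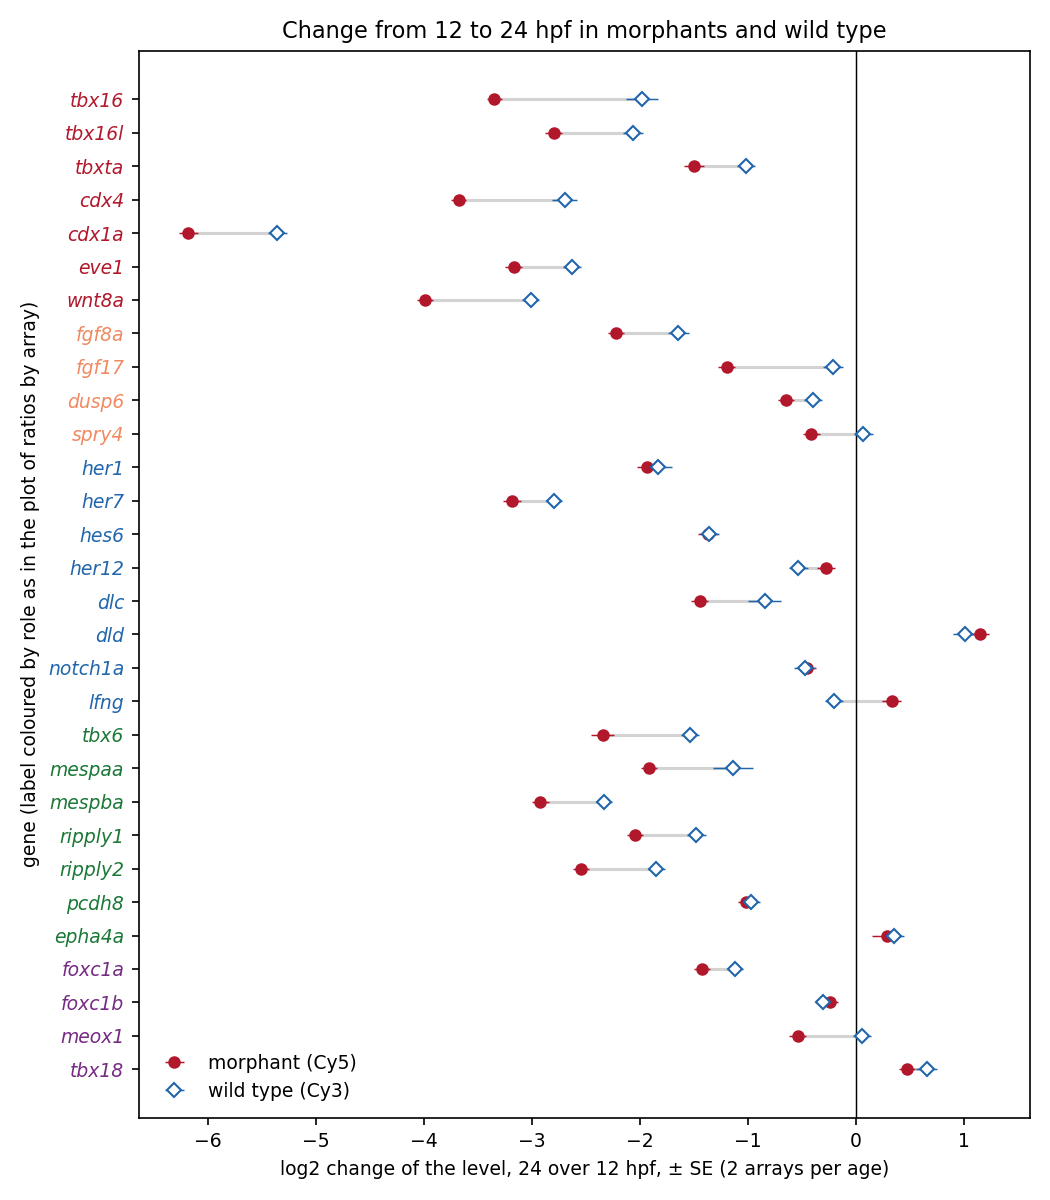
Log2 change of the level from 12 to 24 hpf (24 over 12 hpf) for each tested gene, in morphants (filled circles) and wild type (open diamonds), with SE bars from limma over 2 arrays per age. The morphant point lies left of the wild-type point for tbx16, wnt8a and fgf17, and right of it for lfng, while both points nearly coincide for her1 and hes6.

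Of 66 other tested genes of the segmentation and tailbud pathways 25 were lower and 1 was higher at 24 hpf, with a median ratio of −0.18, where 14.1% and 12.1% of all tested genes were called. At 12 hpf 6 were lower and 7 higher, with a median of 0.01, where 10.9% and 12.4% of all tested genes were called, so that the 12 hpf counts lay near the share over all genes. The fibronectin gene fn1b, a matrix component laid down at somite boundaries, was at −0.91 and −1.19 at 24 hpf (mean −1.05 ± 0.20, adjusted p = 8.57e-05). Genes of the Fgf antagonist il17rd (−0.77 ± 0.17) and of the Fgf-induced ETS factor etv4 (−0.61 ± 0.01) were lower too (adjusted p = 2.74e-04 and 4.45e-04), and both were also lower at 12 hpf, at −0.24 and −0.26 (adjusted p = 0.0428 and 0.0202). Further Fgf pathway genes of this list were named after their values were seen. Called lower at 24 hpf were fgfr2 at −0.30, spry2 at −0.25, fgf10a at −0.24 and dusp4 at −0.22 (adjusted p = 0.0234, 0.0216, 0.0266 and 0.0379). Not past the test at that age were fgfr3 at −0.19, spry1 at −0.13, fgf24 at −0.12, etv5a at −0.12 and fgfr1a at −0.06. Nor were fgf3 at −0.00, fgfr4 at 0.08 and etv5b at 0.14. The ETS factor gene etv5b was higher at 12 hpf, at 0.26 (adjusted p = 0.0200). The retinoic acid-degrading enzyme gene cyp26a1, at −1.01 ± 0.08, and the zinc-finger gene sall4, at −0.58 ± 0.24, were also lower (adjusted p = 1.24e-04 and 0.00161). At 12 hpf the Notch feedback gene nrarpa rose by 0.54 ± 0.06 and the ventral repressor gene vox by 0.43 ± 0.04 (adjusted p = 0.00135 and 0.00289). The posterior somite marker uncx4.1 was higher at 12 hpf, at 0.33 ± 0.16 (adjusted p = 0.0113), and lower at 24 hpf, at −0.55 ± 0.01 (adjusted p = 0.00103). The cell adhesion gene cdh2 was lower at both ages, at −0.74 ± 0.07 and −0.55 ± 0.03 (adjusted p = 1.37e-04 and 6.19e-04), and the receptor gene notch3 was lower at 12 hpf, at −0.59 ± 0.36 (adjusted p = 0.00704). The retinoic acid receptor gene rarga was at −0.28 ± 0.00 at 12 hpf (adjusted p = 0.0400).

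Markers of neighbouring tissues were counted at 24 hpf as well, where 12.1% of all tested genes were called higher and 14.1% lower. Of 22 skeletal muscle genes 10 were higher and 5 lower in morphants, of 20 neural tube genes 1 was higher and 8 lower, and of 14 notochord genes 0 were higher, also at an unadjusted p under 0.05, and 8 lower. The 5 lower muscle genes were myf5 (−0.96), smyhc1 (−0.49), myod1 (−0.38), myog (−0.27) and myf6 (−0.25). The 10 higher ones encode contractile proteins, a creatine kinase, desmin and parvalbumins, with ratios from 0.20 to 0.50. The summed muscle signal at 24 hpf, in which bright genes weigh most, was 18.62 and 18.65 in morphants and 18.37 and 18.43 in wild type on the log2 scale. The summed notochord signal was 15.69 and 15.74 in morphants and 16.11 and 16.04 in wild type, and that of the neural tube 16.38 and 16.36 against 16.55 and 16.49. For the 7 tailbud progenitor genes it was 13.31 and 13.45 in morphants and 13.96 and 14.04 in wild type. All markers of the muscle, neural tube and notochord lists were well above background at 24 hpf on every array. The part of such shifts in the tailbud and somite values was not tested.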

How the data were processed

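Intensity values per spot were deposited as made by the authors with Agilent Feature Extraction 10.5.1.1, per the submitters' processing notes and the file headers, and include median signals, local backgrounds and dye-normalized processed signals. The log10 ratios in the deposited value table equalled that software's log ratio at every spot. The same files hold the software's p-value per spot, as deposited. All 4 arrays carry the same scan time, so no batch could be modelled.

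Background was corrected by normexp (offset 50) and ratios by loess within arrays, with 1417 control spots and 10 to 18 outlier spots per array left out. Probes kept (28320 of 43603) had 1 channel or more well above background on each array of either age. Symbols came from a RefSeq table (16770 probes), and the brightest kept probe stood for a gene. Ratios (a mean per age, all 4 arrays) and, after Aquantile normalization, each channel's levels at 24 against 12 hpf were fitted in limma 3.58.1 (R 4.3.3), two-sided, with Benjamini-Hochberg adjustment over all probes kept. Files hold no mean spot signal, so medians were used. The procedure was also run on simulated data in which few probes changed, and no result is drawn from that run here.

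Members and lists were chosen with earlier results of these data known. Values of every array are given for the 4 members per role with the largest 24 hpf ratio and for members called at both ages, and also for her1, her7 and lfng, which were added after their values were seen. Other pathway genes were named if past the threshold and among the 6 largest ratios of an age. Further Fgf and Notch pathway genes were an exception, added after their values were seen. Nothing says that same-numbered pools of the 2 ages share parents or a day, and with pools taken as replicates the p-values reflect only how far these arrays differ. The number of arrays limits precision. Alternatives covered background, normalization, filter, probe choice, variance model, left-out arrays and the replicate block. Promoter motifs were not analysed here, since no sequences were at hand.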

Additional observations from a re-analysis of the deposited data

Results flagged for a closer look

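For 19 of 30 tested genes the morphant effect differed between the ages by limma's test of the difference (24 minus 12 hpf, log2), against 10.8% of all tested genes. Among tailbud genes the differences were −1.37 for tbx16, −0.98 for cdx4, −0.98 for wnt8a, −0.82 for cdx1a, −0.74 for tbx16l, −0.54 for eve1 and −0.48 for tbxta. Among Fgf genes they were −0.99 for fgf17, −0.58 for fgf8a and −0.48 for spry4. Boundary and somite genes gave −0.81 for tbx6, −0.78 for mespaa, −0.70 for ripply2, −0.60 for meox1, −0.59 for mespba and −0.57 for ripply1. Genes listed under the clock gave −0.60 for dlc, −0.39 for her7 and, in the other direction, 0.54 for lfng, which does not cycle in zebrafish. For cdx1a the dimmer probe gave 0.07 (adjusted p = 0.813), and when probes of a gene were averaged the differences of cdx1a (−0.38, adjusted p = 0.112) and dlc (−0.40, adjusted p = 0.0617) were not called. The dimmest probes of fgf8a (−0.32, adjusted p = 0.0552) and spry4 (−0.22, adjusted p = 0.154) were not called either. Dimmer probes gave smaller differences for tbx16 (−0.67, adjusted p = 0.00468) and fgf17 (−0.37, adjusted p = 0.0356). For wnt8a the dimmer probe gave −0.92 (adjusted p = 9.51e-04), and for tbx16l −0.82 (adjusted p = 0.00830). The differences of her7 and mespaa were each lost without 12 hpf replicate 1 and without 24 hpf replicate 2, that of her7 also without 12 hpf replicate 2, that of dlc without 12 hpf replicate 1, and that of tbxta without 12 hpf replicate 2 or 24 hpf replicate 1.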

How the results depend on the processing

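The number of members called at 12 hpf was 8, and 5 with a smaller normexp offset of 10, 1 with plain background subtraction, 2 with processed signals, 3 with the deposited log ratios, 3 by the p that the scanner software gives and 0 when ratios were median-centred without loess (16 at an unadjusted p under 0.05). At 24 hpf it was 20, and 0 with plain subtraction or processed signals (21 and 22 unadjusted), 1 with median centring or the deposited ratios, and 12 by the software's p. For the difference between ages it was 19, and 7 with the smaller offset and 0 with plain subtraction, median centring, processed signals or deposited ratios (21, 20, 21 and 21 unadjusted). Across all these settings the members' median stayed between −0.39 and −0.24 at 24 hpf. Leaving out 1 array gave 5 to 7 calls at 12 hpf (5 without replicate 2) and 13 to 14 at 24 hpf (13 without replicate 1), with 16 to 18 for the difference, 27 to 29 in morphants and 25 to 26 in wild type with age. With a prior variance following intensity, added after seeing the data, the counts were 8, 20 and 20, and with median centring on top 17 at 12 hpf (15 higher, 2 lower), when cdx1a and meox1 turned to 0.30 and 0.25. That centring also put dusp6 at 0.0168 at 24 hpf, also with the variance trend. Processed signals of single channels shifted the change with age of all genes by −0.46 in morphants and −0.47 in wild type, with lfng at −0.44 in morphants and spry4 at −0.46 and meox1 at −0.61 in wild type before removing that shift. The replicate block could rest on shared numbers only (correlation of same-numbered deviations −0.04 for ratios) and gave 19 calls for the difference, 30 in morphants and 26 in wild type. In wild type, where the correlation was −0.14, crossed numbers gave 26. Shares of all tested genes called under these settings are not given here. Other causes of lost calls were not tested.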
